A study of Mus musculus with 4 samples.

Results

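Immortalized murine dermal fibroblasts (imMDFs) were compared between passage 34 and passage 42, a comparison between earlier and later cultures of the same lines. RNA-seq had been performed on 4 cultures, Lap2alpha +/+ (Tmpo WT) and Lap2alpha -/- (Tmpo KO) fibroblasts at each of both passages, and all 4 libraries of the series entered the comparison, 2 of passage 34 and 2 of passage 42. Of 32757 transcript IDs counted, 13870 reached at least 1 CPM (a transcript's reads relative to all reads given to transcripts) in both libraries of at least 1 passage and were compared. Each genotype was 1 cell line, both lines were untreated and grown in the same serum-containing medium, and cells were passaged shortly before confluence. The KO line carries a deletion in Tmpo that removes LAP2alpha, a nucleoplasmic protein that binds lamin A/C. In the labels, passage 34 is replicate 1 and passage 42 is replicate 2 of each genotype, so passage cannot be told apart from the day of harvest or the state of the dish.

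A fibroblast line in culture is a changing population. Cells that divide faster or survive plating better come to make up more of the dish, and epigenetic states can be lost or fixed over many divisions. Genes that answer to serum, cell density, metal ions, osmolarity or interferon also follow the condition of the dish on the day of harvest. In these bulk samples, fewer cells of a type and less RNA per cell cannot be told apart.

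The libraries held between 12168433 and 19603812 reads given to transcripts, and in each genotype the passage 42 library was the deeper one. The targeted transcript Tmpo NM_011605 had 903 and 1324 reads in WT at passages 34 and 42 and 6 reads in each KO library. It was not tested because KO stayed under 1 CPM. Of 15 fibroblast marker genes, 13 were at 1 CPM or more in all 4 libraries, and their summed level went from 15430 to 13975 CPM in WT and from 12856 to 17043 CPM in KO between passages 34 and 42. Pdgfrb was listed at 0 in every library, but it has 2 transcript IDs here, and reads that fit several IDs of a gene were given to none. The summed markers of keratinocytes, melanocytes, endothelium, leukocytes, skeletal muscle and adipocytes lay between 7.75 and 54.1 CPM in any library. Those of Schwann and neural cells summed to 170 and 137 CPM at passage 34 in WT and KO and to 102 CPM in both lines at passage 42. In this sum Tubb3 alone went from 130 to 56.6 CPM in WT and from 62.5 to 32.5 CPM in KO. Ncam1 NM_010875 of the same list went from 16.6 to 24.8 CPM in WT and from 36.8 to 38.8 CPM in KO. The summed markers of pericytes and smooth muscle, which include the contractile genes Acta2 and Cnn1, went from 2822 to 2368 CPM in WT and from 2494 to 1928 CPM in KO. Their part in the results was not tested.

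Between passages, 282 transcripts rose and 87 fell at passage 42 (edgeR quasi-likelihood test with genotype as a block, Benjamini-Hochberg adjusted p under 0.05). These 369 transcripts were 2.66% of those tested, with 2.03% called higher and 0.627% called lower. The absolute log2 change among the called had a median of 0.94 and a median SE of 0.22. In 351 of the 369 the direction was the same in WT alone and in KO alone, against 57% of all transcripts tested. Calling on a shared change favours transcripts that moved alike, so this count is no separate support. Both passage 42 libraries lay above both passage 34 libraries in 231 of those called higher (81.9%) and in 19.2% of all transcripts tested, and below them in 69 of those called lower (79.3%) and in 17.3% of all. Of the called, 31 of the higher and 11 of the lower had passed the 1 CPM limit only through the passage in which they were high.

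The number of calls rested on the choice of model more than the fold changes did. With 1 residual degree of freedom, edgeR gave all transcripts of a level the same spread, and a transcript's own disagreement between WT and KO carried no weight. DESeq2 with the same block called 25 higher and 14 lower, and an added correction for transcript length left 58 higher and 23 lower. Without the genotype block no transcript was called by edgeR, although 883 had an unadjusted p under 0.05. For a single transcript, an exact permutation test of 2 libraries against 2 cannot give a two-sided p below 0.333.

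Within a genotype there was 1 library per passage, so the changes in WT alone and in KO alone are log2 CPM differences without a test. They share no library. In WT alone, 309 transcripts (2.23%) were past 2-fold higher and 244 (1.76%) past 2-fold lower at passage 42. In KO alone, 683 (4.92%) were past 2-fold higher and 649 (4.68%) past 2-fold lower, and the SD of the change over transcripts was 0.47 in WT and 0.62 in KO. Both genotypes were past 2-fold higher for 78 transcripts (0.562%) and past 2-fold lower for 46 (0.332%), while 6 were past 2-fold higher in WT and lower in KO and 14 the reverse. Over the 13870 transcripts, the change in WT and the change in KO had the same sign in 57.0% and a Pearson r of 0.24 (Spearman's rho 0.22), a value across transcripts of 2 pairs of libraries.

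**Figure D1:**
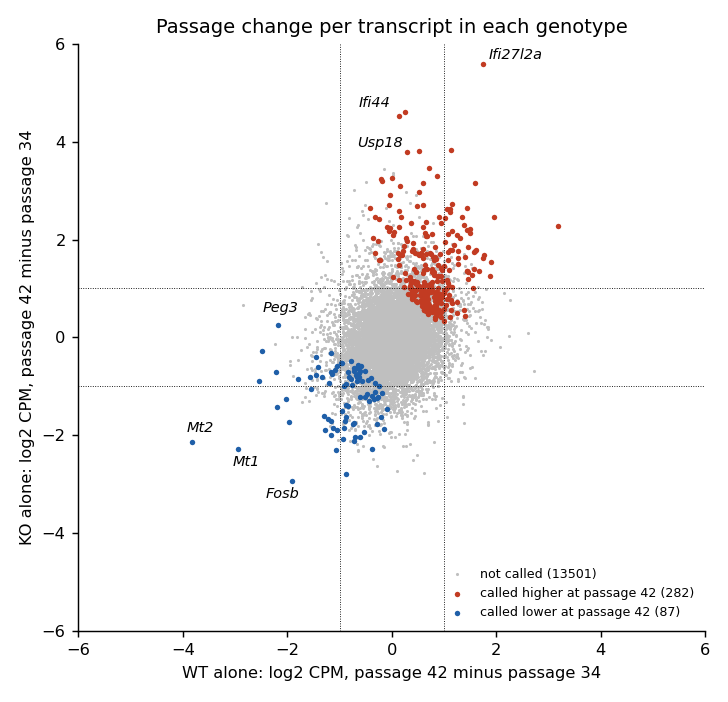
Each point is 1 of 13870 transcripts, with the passage change in WT alone on the x axis and in KO alone on the y axis (log2 CPM, passage 42 minus passage 34, 1 library per passage); dotted lines mark 2-fold. Mt1, Mt2 and Fosb lie past 2-fold lower in both genotypes, whereas Ifi44 and Usp18 lie at 0.26 and 0.29 in WT and at 4.61 and 3.79 in KO.

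Of the 282 transcripts called higher, 52 were past 2-fold in both genotypes, 117 in KO only, 13 in WT only and 100 in neither. Of the 87 called lower, 15 were past 2-fold in both genotypes, 29 in KO only, 16 in WT only and 27 in neither. The changes that both lines shared are described first.

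The largest decreases were those of the metallothioneins. Mt1 and Mt2 encode small cysteine-rich proteins that bind zinc and copper, and they are transcribed when metal transcription factor 1 (MTF1) senses free zinc, cadmium or oxidative stress. Slc30a1 encodes a zinc exporter of the plasma membrane and is another known target of MTF1. The 300 bases around the start sites of Mt1, Mt2 and Slc30a1 are shown because the 3 genes fell together (RefSeq, GRCm38.p6, all on the plus strand, 250 bases before to 50 after the start). They lie at chr8:94178839-94179138, chr8:94172368-94172667 and chr1:191906531-191906830. Capitals mark the letters TGCACNC or TGCGCNC, the core of the metal response element, on either strand; these letters were chosen for the search after the decrease had been seen.
Mt1: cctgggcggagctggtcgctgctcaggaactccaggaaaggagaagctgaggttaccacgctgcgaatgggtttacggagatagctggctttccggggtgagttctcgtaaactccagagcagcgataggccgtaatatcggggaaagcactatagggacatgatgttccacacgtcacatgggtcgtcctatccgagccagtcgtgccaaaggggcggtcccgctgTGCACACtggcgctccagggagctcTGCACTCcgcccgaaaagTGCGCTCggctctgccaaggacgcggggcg
Mt2: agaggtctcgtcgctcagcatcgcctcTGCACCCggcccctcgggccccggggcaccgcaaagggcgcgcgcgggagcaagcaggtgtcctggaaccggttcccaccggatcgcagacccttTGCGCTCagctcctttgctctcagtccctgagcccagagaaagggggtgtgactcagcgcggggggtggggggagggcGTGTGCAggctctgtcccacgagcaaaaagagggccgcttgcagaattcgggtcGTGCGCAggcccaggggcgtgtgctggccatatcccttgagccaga
Slc30a1: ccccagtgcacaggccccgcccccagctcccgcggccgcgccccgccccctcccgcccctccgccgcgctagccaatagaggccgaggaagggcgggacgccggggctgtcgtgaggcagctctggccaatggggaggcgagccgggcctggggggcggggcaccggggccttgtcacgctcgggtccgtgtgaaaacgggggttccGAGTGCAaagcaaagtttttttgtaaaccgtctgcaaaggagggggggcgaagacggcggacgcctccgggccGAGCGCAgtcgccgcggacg
The searched letters occurred 3 times in the Mt1 window, 4 times in that of Mt2 and 2 times in that of Slc30a1. At least 1 match was present in 25.7% of all 32851 promoter windows of this length and in 37.8% of those of the genes tested, so a match alone is common.

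Mt1 (chr8:96702989-96704225 in mm9) went from 257 CPM at passage 34 to 33.3 CPM at passage 42 in WT and from 326 to 66.4 CPM in KO. Both passage 42 libraries were far below both passage 34 libraries, and the transcript fell by 2.62 on the log2 scale (SE 0.193, adjusted p = 1.25e-37). Mt2 went from 54 to 3.69 CPM in WT and from 69.4 to 15.8 CPM in KO, and it fell by 2.93 (SE 0.276, adjusted p = 1.87e-22). Slc30a1 went from 14.5 to 4.07 CPM in WT and from 16.4 to 9.02 CPM in KO and fell by 1.32 (SE 0.328, adjusted p = 0.00598). The WT decrease was the larger one for each of the 3 genes. DESeq2 called Mt1 and Mt2, and it did not call Slc30a1.

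Of 17 measured genes for metallothioneins and zinc transporters, these 3 fell (17.6% against 0.627% of all transcripts), none rose, and the other 14 did not pass the test. The median log2 change of the list was -0.13, against 0.01 over all transcripts tested. The zinc importer Slc39a10 went from 42.6 to 68.8 CPM in WT and from 61.2 to 94.7 CPM in KO, a log2 change of 0.66 that did not pass (adjusted p = 0.0555). Mtf1 itself had a log2 change of 0.12.

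**Figure D2:**
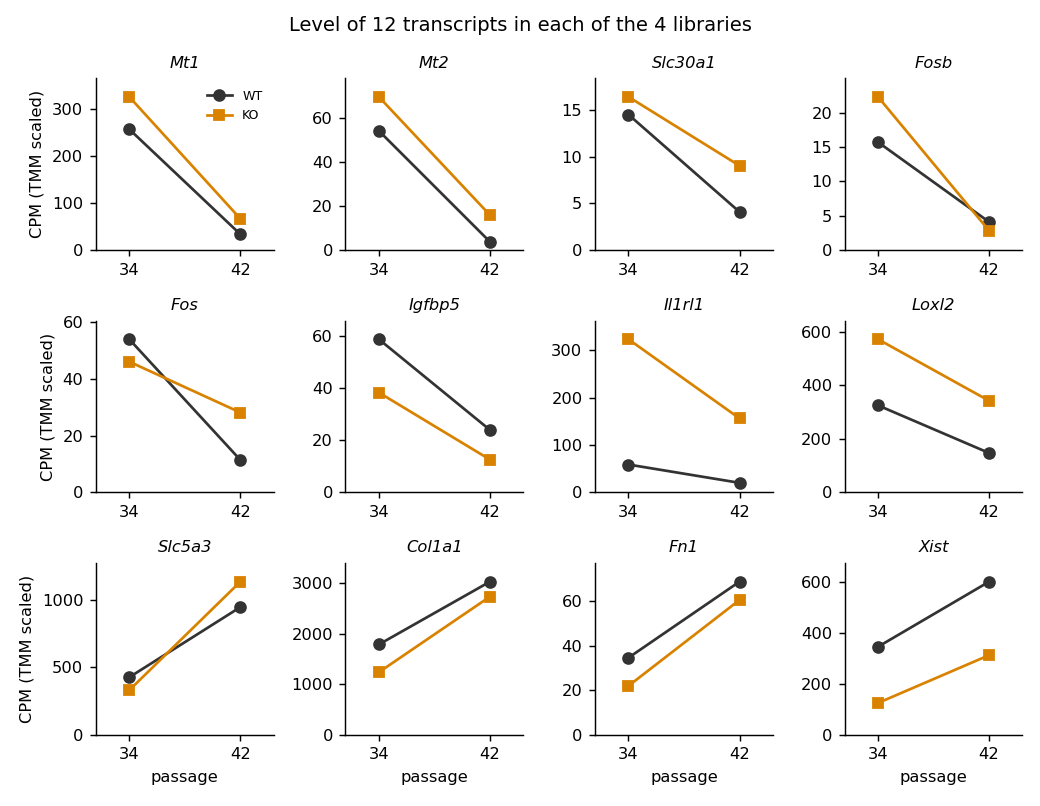
Level in CPM scaled by TMM factors (y axes start at 0) of 12 transcripts at passages 34 and 42 (x axis), with WT as circles and KO as squares, 1 library per point. Mt1, Mt2, Slc30a1, Fosb, Fos, Igfbp5, Il1rl1 and Loxl2 were lower and Slc5a3, Col1a1, Fn1 and Xist higher at passage 42 in both genotypes.

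The immediate-early genes, which are switched on within minutes of growth factor or stress signals, split. Of 33 measured genes, 5 fell (15.2% against 0.627% of all transcripts), 2 rose (6.06% against 2.03%) and 26 did not pass, with a median log2 change of -0.15. The AP-1 subunit Fosb went from 15.7 to 4.07 CPM in WT and from 22.3 to 2.8 CPM in KO, a log2 change of -2.47 (SE 0.343, adjusted p = 8.36e-10). Fos, encoding another AP-1 subunit, went from 53.9 to 11.4 CPM in WT and from 46 to 28.1 CPM in KO, and fell by 1.45 (SE 0.262, adjusted p = 1.41e-05). Both passage 42 libraries were below both passage 34 libraries for each of them.

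Ier2 (log2 change -0.82), Ier3 (-0.79) and the orphan nuclear receptor gene Nr4a1 (-0.81) also fell, although Nr4a1 changed by -0.09 in WT alone against -1.46 in KO alone. The genes that rose were Spry4 (0.93) and Spry2 (0.67), which encode feedback inhibitors of receptor tyrosine kinase signaling and were higher in both genotypes. Jun, the main partner of Fos, had a log2 change of 0.01. Egr1 changed by 0.48 in WT alone and by -0.82 in KO alone. The median of the list was 0.05 in WT alone and -0.35 in KO alone.

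Histone genes were lower in both lines. Of 58 measured, 6 fell and none rose, which is 10.3% called lower against 0.627% of all transcripts, and 48 were lower in WT alone and 45 in KO alone. The median change was -0.33 in WT and -0.36 in KO. H2ac12, encoding a histone H2A, went from 153 to 89.3 CPM in WT and from 126 to 64 CPM in KO, and fell by 0.88 (SE 0.189, adjusted p = 0.000781). H2ac6 went from 197 to 111 CPM in WT and from 154 to 88.7 CPM in KO and fell by 0.81 (SE 0.183, adjusted p = 0.00155). H2bc15, the most abundant of the 6, went from 996 to 635 CPM in WT and from 880 to 568 CPM in KO. Most of these genes are replication-dependent, are made in S phase and lack a poly(A) tail, and a library from rRNA-depleted total RNA retains them.

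The histone genes measured had a median length of 532.5 bases, and short transcripts in general were lower at passage 42 in WT. After the length correction the median of the list was -0.20, and after a GC correction it was -0.18. The genes of the DNA replication machinery, whose expression also follows the cell cycle, had a median log2 change of -0.01 in WT and 0.00 in KO, and none of 38 passed by edgeR or DESeq2 (1 and 0 at an unadjusted p under 0.05). Of 38 mitosis genes none passed by either tool (5 and 0 at an unadjusted p under 0.05), with medians of -0.05 in WT and 0.09 in KO. Over all 13870 transcripts tested, 1783 had an unadjusted p under 0.05 by edgeR and 730 by DESeq2. The proliferation marker Mki67 went from 1279 to 1576 CPM in WT and from 1013 to 1504 CPM in KO (log2 change 0.44, adjusted p = 0.295).

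Slc5a3, encoding a transporter that brings the osmolyte myo-inositol into the cell, rose in both lines. It went from 427 to 948 CPM in WT and from 331 to 1137 CPM in KO, a log2 change of 1.47 (SE 0.195, adjusted p = 1.23e-10). It was the only one of 9 measured genes of the osmolyte and tonicity list that passed, where 2.03% of all transcripts were called higher. The taurine transporter gene Slc6a6 had a log2 change of 0.02. Slc5a3 lies at chr16:92058567-92087718 in mm9 within the span of Mrps6 on the same strand, and Mrps6, encoding a mitochondrial ribosomal protein, rose too (51.2 to 113 CPM in WT, 37.7 to 77.8 CPM in KO, log2 change 1.10). Reads of the shared exons cannot be assigned to either gene.

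Matrix genes of both directions were found. Col1a1, encoding the main chain of type I collagen, went from 1788 to 3032 CPM in WT and from 1238 to 2736 CPM in KO and rose by 0.95 (SE 0.21, adjusted p = 0.00116). The counted Fn1 transcript NM_010233, encoding fibronectin, went from 34.5 to 68.6 CPM in WT and from 21.9 to 60.4 CPM in KO (log2 change 1.23, SE 0.234, adjusted p = 5.88e-05). Fn1 has 7 IDs here, and its reads common to several of them are not in these values. Adamts9, a secreted metalloprotease gene, went from 62.5 to 120 CPM in WT and from 52.7 to 126 CPM in KO (log2 change 1.10). These 3 were higher in both passage 42 libraries than in both passage 34 libraries.

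The collagen crosslinking enzyme gene Loxl2 went from 325 to 147 CPM in WT and from 572 to 342 CPM in KO and fell by 0.94 (SE 0.184, adjusted p = 1.00e-04), and Lox fell by 0.79. KO at passage 42 was above WT at passage 34 for Loxl2, so its groups overlapped although both lines went down. Of 52 measured genes of the collagen list, which holds chains and modifying enzymes, 4 rose (7.69% against 2.03% of all transcripts), 2 fell (3.85% against 0.627%) and 46 did not pass, with a median log2 change of 0.07. The other members that rose, Col12a1, Col11a1 and the prolyl hydroxylase gene P4ha3, did so mainly in KO. Col12a1, for a collagen that sits on fibril surfaces, went from 278 to 326 CPM in WT and from 420 to 1529 CPM in KO.

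Igfbp5, encoding a binding protein for insulin-like growth factors, went from 58.9 to 24 CPM in WT and from 38.4 to 12.6 CPM in KO and fell by 1.45 (SE 0.258, adjusted p = 1.11e-05). Il1rl1, encoding the interleukin 33 receptor ST2, went from 58.7 to 20.1 CPM in WT and from 323 to 156 CPM in KO and fell by 1.29 (SE 0.187, adjusted p = 9.25e-09). The KO level of Il1rl1 remained above WT at both passages. Of 27 measured genes of the senescence-associated secretory list, 3 fell (Il1rl1, Ccl8 and Igfbp5; 11.1% against 0.627% of all transcripts), 2 rose (Serpine2 and Nrg1; 7.41% against 2.03%) and 22 did not pass. Ccl8 had passed the 1 CPM limit only through passage 34, where it was high. Among 27 p53 targets and cyclin-dependent kinase inhibitors, Gadd45b fell (log2 change -0.94; 3.7% against 0.627%) and none rose.

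Tubb3, a neuronal type tubulin that many cultured cells express, went from 130 to 56.6 CPM in WT and from 62.5 to 32.5 CPM in KO and fell by 1.07 (adjusted p = 8.38e-05). The small heat shock protein gene Hspb1 fell by 1.24, whereas Hsph1, encoding a large chaperone of the HSP110 family, rose by 0.68. These were the called members of 19 heat shock genes (5.26% each way, against 2.03% of all transcripts called higher and 0.627% lower). Nipal1, of a family of magnesium transporter genes, fell by 1.64 from 30.8 to 7.62 CPM in KO and from 8.12 to 3.56 CPM in WT.

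A group of noncoding RNAs rose. Xist, the long RNA that coats the inactive X chromosome, went from 346 to 602 CPM in WT and from 125 to 313 CPM in KO, a log2 change of 1.06 (SE 0.185, adjusted p = 7.01e-06). Malat1, an abundant nuclear RNA, went from 4626 to 7318 CPM in WT and from 3428 to 6268 CPM in KO and rose by 0.77 (adjusted p = 0.0362). Meg3, an imprinted long noncoding RNA, rose by 0.90, with 0.47 in WT alone and 1.34 in KO alone. Xist overlaps the antisense gene Tsix, and since no source used here states whether counting used strand, reads of the 2 cannot be told apart.

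Of 119 measured abundant or structural noncoding RNAs, 8 rose (6.72% against 2.03% of all transcripts), 2 fell (0.627% of all transcripts did) and 109 did not pass. The medians were 0.01 in WT and 0.18 in KO. Of the 8, 5 were small nucleolar RNAs, which guide chemical modification of ribosomal RNA and are cut from introns of host genes. Snord83b, inside Rpl3, went from 71 to 144 CPM in WT and from 98.7 to 192 CPM in KO (log2 change 0.99, SE 0.184, adjusted p = 3.24e-05). Snord87 rose by 1.79, from 1.26 to 4.13 CPM in WT and from 2.46 to 8.81 CPM in KO. Snora7a, inside Rpl32, and Snord32a, inside Rpl13a, fell by 0.68 and 0.63. Reads of these small RNAs and of the host introns around them cannot be told apart. The paper took RNA above a size limit for its libraries, so mature RNAs as short as these may be depleted. Their mature levels were not measured separately.

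Camk2d NM_001025439, encoding a calcium/calmodulin-dependent kinase, went from 2.26 to 6.36 CPM in WT and from 1.29 to 6.37 CPM in KO (log2 change 1.89, SE 0.411), and with the counts of all Camk2d IDs summed the change was 1.58 and still called. Wsb1 NM_001042565, for an adaptor of a ubiquitin ligase, went from 5.11 to 14.6 CPM in WT and from 5.28 to 23.6 CPM in KO (log2 change 1.84, SE 0.327), and the call was lost when the counts of all Wsb1 IDs were summed. Kdm6b, encoding an H3K27 demethylase, rose by 0.95 and Tet2, encoding a DNA demethylation enzyme, by 0.71. Both belong to a list of 25 Polycomb and heterochromatin regulators in which none fell. Of all transcripts tested, 2.03% were called higher and 0.627% lower.

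Transcripts called in either direction differed in build and in read number from the rest. The median count was 958.6 for those called higher, 764 for those called lower and 236.75 for all tested. The part of read number in the differences below was not tested. Length here is that of the longest annotated transcript of the gene and not of the counted ID. GC share is that of the gene's longest protein-coding transcript. Those called higher had a median length of 5177 bases, those called lower 2174.5 bases and all tested 3072 bases. The median GC share was 47.5% for those called higher, 53.8% for those called lower and 50.5% for all. Noncoding RefSeq records made up 12.4% of those called higher, 6.9% of those called lower and 7.98% of all, and genes with several IDs made up 21.3%, 6.9% and 12.6%. In the longest length decile of transcripts, 7.24% were called higher and 0.0754% lower, and in the shortest decile 1.21% were called higher and 1.96% lower.

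**Figure D3:**
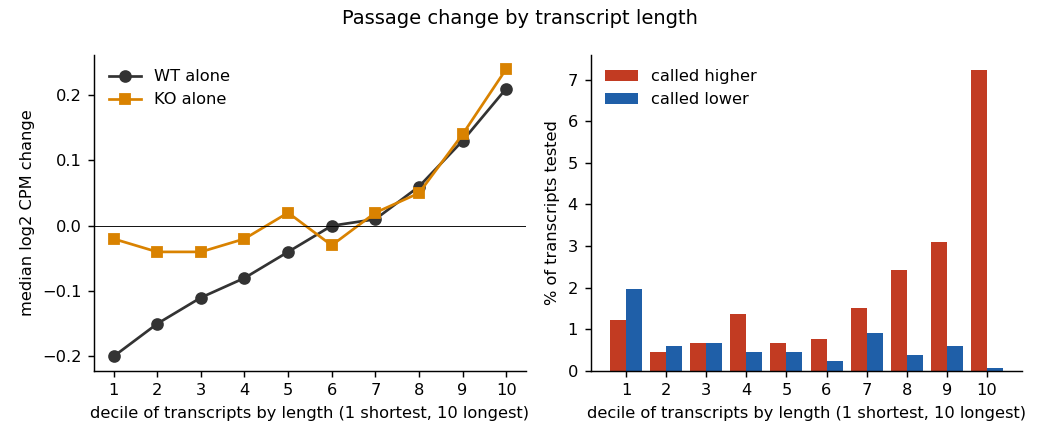
Left, median log2 CPM change (y axis) in deciles of 13253 transcripts ordered by length (x axis), WT as circles and KO as squares. Right, share of each decile called higher or lower (bars from 0). The medians reach 0.21 in WT and 0.24 in KO in the longest decile, while in the shortest WT is at -0.2 and KO at -0.02.

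The relation to length held in both lines, with Spearman's rho of 0.26 in WT and 0.13 in KO over 13253 transcripts, and with GC share rho was -0.13 in WT and -0.27 in KO over 12649. These are descriptions across transcripts of the same libraries. The share of reads outside any transcript went from 49.9 to 56.5% in WT and was 54.3% in both KO libraries, so it moved with passage in WT and not in KO. The part of depth and of reads outside transcripts in these relations was not tested.

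In WT, genes of short transcripts that encode ribosomal and respiratory proteins were lower as groups. Of 72 cytosolic ribosomal protein genes, 70 were lower in WT alone (median -0.31) and 27 in KO alone (median 0.09). Of 55 genes of respiratory chain complexes I to IV, 52 were lower in WT alone (median -0.34) and 19 in KO alone (median 0.07). Their median lengths were 946 and 983 bases, and the medians of the fitted change, -0.13 and -0.12, were -0.03 and -0.04 after the length correction. Only Rps16 of the first list (1.39%) and Uqcrq and Cox5a of the second (3.64%) fell, against 0.627% of all transcripts. Rps16 went from 297 to 270 CPM in WT and from 378 to 104 CPM in KO, and Uqcrq, encoding a complex III subunit, from 69.4 to 47.9 CPM in WT and from 86.4 to 22.5 CPM in KO.

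The interferon-stimulated genes were the list with the largest median change, and that change lay in KO. These genes are transcribed in answer to type I interferon or foreign nucleic acid, many of them through an element in their promoters, and they encode antiviral effectors, sensors and ubiquitin-like modifiers. Of 38 measured, 18 rose (47.4% against 2.03% of all transcripts), 1 fell (0.627% of all transcripts did) and 19 did not pass. The median log2 change was 0.86 in the fit, -0.11 in WT alone and 1.97 in KO alone. In KO 36 of 38 were higher, 32 of them past 2-fold, and in WT 13 were higher, 2 of them past 2-fold. The difference between genotypes leaves no degree of freedom for a test.

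The promoter window of Isg15, which encodes the ubiquitin-like modifier of this response, is shown as an example of the element (RefSeq, GRCm38.p6, chr4:156200769-156201068, minus strand, written in the direction of transcription). Capitals mark GAAANNGAA on either strand, in overlapping copies.
Isg15: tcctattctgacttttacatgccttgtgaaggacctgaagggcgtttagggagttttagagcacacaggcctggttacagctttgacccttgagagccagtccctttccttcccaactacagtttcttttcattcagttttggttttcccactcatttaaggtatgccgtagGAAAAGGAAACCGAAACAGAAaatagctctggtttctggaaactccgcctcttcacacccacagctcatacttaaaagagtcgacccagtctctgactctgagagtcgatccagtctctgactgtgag
The letters were present in 19 of the 30 interferon-stimulated genes that have a window in the table, against 8.14% of the windows of 10326 genes tested. They were present in 13.7% of the 204 genes called higher and in 5.36% of the 56 called lower that could be matched. The 13.7% are 28 genes, of which 10 belong to the interferon-stimulated list. The windows that lacked the letters included that of Oasl2.

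Ifi44, encoding an antiviral protein, went from 3.27 to 3.94 CPM in WT and from 4.05 to 102 CPM in KO. The passage 42 KO library alone was high, and the fitted log2 change was 2.78 (SE 0.347, adjusted p = 3.7e-12). Usp18, for the protease that removes ISG15 and restrains interferon signaling, went from 2.01 to 2.48 CPM in WT and from 4.42 to 62.6 CPM in KO (log2 change 2.48). Isg15 went from 8.63 to 11.4 CPM in WT and from 12.8 to 44.8 CPM in KO (log2 change 1.15). Bst2, for tetherin, which holds budding virus at the cell surface, went from 9.05 to 10.2 CPM in WT and from 26.3 to 146 CPM in KO.

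Ddx58, encoding the RNA sensor RIG-I, went from 59.3 to 57.2 CPM in WT and from 59.8 to 283 CPM in KO, and Stat2 from 17.3 to 18.7 CPM in WT and from 31.9 to 96.8 CPM in KO. Ifi27l2a and Trim30a were higher in WT as well. Ifi27l2a went from 0.251 to 1.14 CPM in WT and from 0.307 to 20.7 CPM in KO, having passed the 1 CPM limit only through passage 42, and Trim30a from 2.18 to 4.96 CPM in WT and from 3.99 to 58.5 CPM in KO. Oasl1 fell in both lines, from 7.79 to 2.54 CPM in WT and from 10 to 5.7 CPM in KO (log2 change -1.18, adjusted p = 0.0442). Rtp4, Gbp2 and Ifit1 were lower in WT alone by 1.26, 1.25 and 1.35 and higher in KO alone by 2.75, 1.57 and 1.75, and none of the 3 passed the test of a shared change.

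These calls rested on the KO pair. DESeq2 called none of the 38 (8 at an unadjusted p under 0.05), and edgeR called 7 after the length correction and 9 with robust estimates. Over all 13870 transcripts, DESeq2 called only 39 (730 at an unadjusted p under 0.05), and 5378 had no adjusted p. The length correction called 81 of all transcripts and robust estimates 358. Of 15 genes for antigen presentation on MHC class I, which interferon also induces, none was called by edgeR or DESeq2. At an unadjusted p under 0.05 there were 3 and 0, against 1783 and 730 of all 13870 transcripts. Of the 15, 14 were higher in KO alone (median 0.58) against 5 in WT alone (median -0.18).

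**Figure D4:**
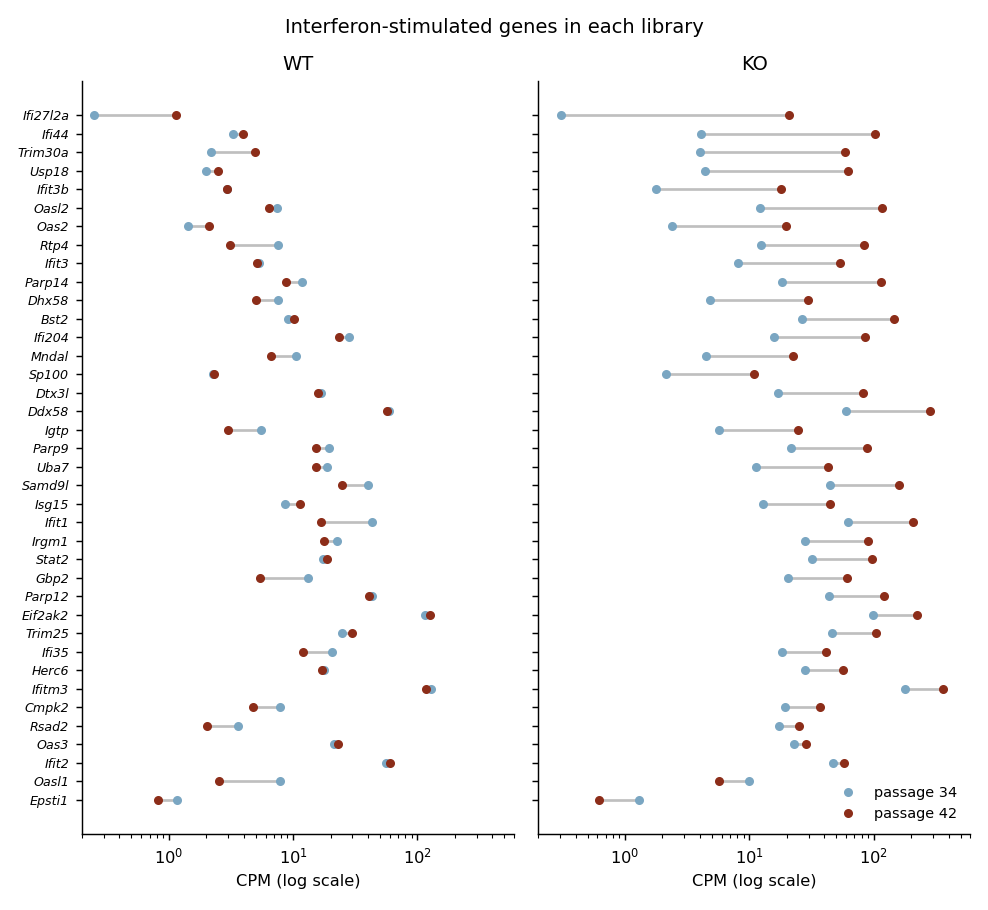
CPM on a log axis of the 38 measured interferon-stimulated genes in WT (left) and KO (right), with passage 34 in blue and passage 42 in dark red, ordered by the change in KO. In KO 36 of 38 genes are higher at passage 42, and in WT 13 are.

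Other changes were also larger in KO. The clustered protocadherins, cell surface adhesion proteins of which single cells choose a few, had 6 of 42 measured genes called higher (14.3% against 2.03% of all transcripts), none lower, and medians of 0.09 in WT and 0.83 in KO. Pcdhga10 went from 2.85 to 4.39 CPM in WT and from 3.62 to 17.8 CPM in KO (log2 change 1.54, SE 0.375). Reads in the exons that members of a cluster have in common cannot be given to a single member. Sfrp2, encoding a secreted Wnt modulator, went from 759 to 1150 CPM in WT and from 60.3 to 394 CPM in KO (log2 change 1.64, SE 0.204, adjusted p = 3.46e-12), so KO at passage 42 remained below both WT libraries. Fat4, for a giant atypical cadherin, went from 499 to 658 CPM in WT and from 73 to 279 CPM in KO.

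The matrix genes Vcan and Fbn2 belonged to this group. Vcan NM_172955, for the proteoglycan versican, went from 20.9 to 25.3 CPM in WT and from 7.37 to 30.7 CPM in KO. Fbn2, for the microfibril protein fibrillin 2, went from 12.1 to 9.66 CPM in WT and from 45.9 to 152 CPM in KO. Its fitted change was negative when either KO library was left out, which leaves the WT change alone and no test. The integrin collagen receptor gene Itga11 behaved alike, from 125 to 108 CPM in WT and from 40 to 120 CPM in KO. Of 42 genes for elastic fibres, proteoglycans and matricellular proteins, 3 rose (7.14% against 2.03% of all transcripts) and none fell, with medians of -0.11 in WT and 0.55 in KO.

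The imprinted genes Ndn and Peg3, which are expressed from the paternal allele, fell mainly in WT. Ndn, encoding necdin, went from 10.3 to 1.65 CPM in WT and from 0.983 to 0.466 CPM in KO and fell by 2.10 (SE 0.477, adjusted p = 0.00195). It had passed the 1 CPM limit, set on CPM without TMM factors, only through passage 34, where it was high. Peg3 went from 34.3 to 7.5 CPM in WT and from 1.11 to 1.35 CPM in KO (log2 change -1.30, adjusted p = 0.0301). Both were already near 1 CPM in KO at passage 34. Peg12, an imprinted gene not in that list, fell in both lines, from 7.12 to 1.46 CPM in WT and from 4.36 to 1.55 CPM in KO (log2 change -1.87). Of 26 imprinted genes measured, 2 rose (Meg3 and H13; 7.69% against 2.03% of all transcripts), 2 fell (7.69% against 0.627%) and 22 did not pass. Sncg, encoding gamma-synuclein, went from 13 to 2.22 CPM in WT and from 2.46 to 2.02 CPM in KO.

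Among transcripts with a mean of at least 50 counts, the 6 whose change in KO most exceeded that in WT were Ifi44, Rtp4, Ifi27l2a, 3110039M20Rik, Usp18 and Oasl2, 5 of them interferon-stimulated. Under the same limit, the 6 with the opposite difference were Atf5 NR_033136, Tmem38b, Tigd4, Phlda1, Agap3 NM_001256431 and Erich5, each higher in WT alone and lower in KO alone at passage 42. Phlda1, an early growth factor response gene, went from 29.7 to 71.8 CPM in WT and from 71.8 to 39.7 CPM in KO. Tmem38b, encoding an intracellular cation channel, went from 11.4 to 18.6 CPM in WT and from 31.8 to 9.43 CPM in KO. With 1 library per passage and genotype, these differences have no replicate check.

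**Figure D5:**
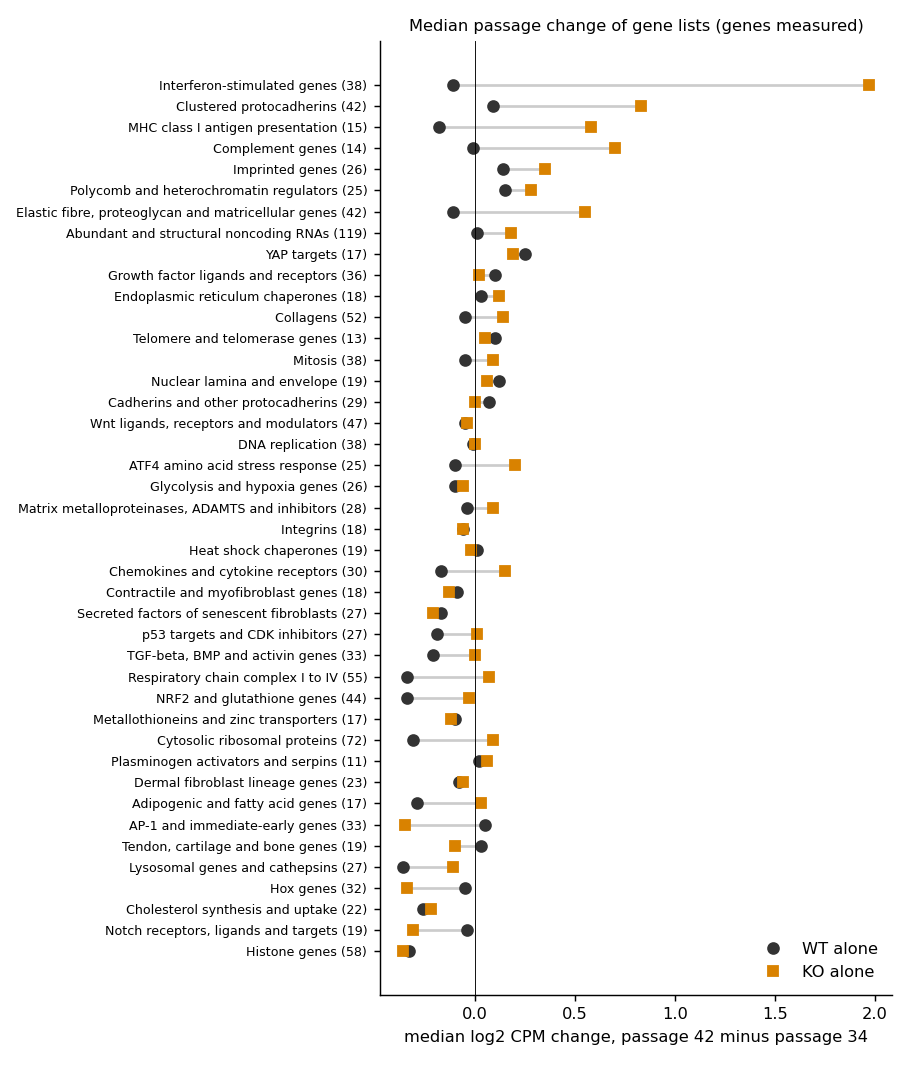
Median log2 CPM change, passage 42 minus passage 34 (x axis), of each gene list with at least 10 measured genes (y axis, number measured in parentheses), WT as circles and KO as squares. Histone genes are at -0.33 and -0.36, while interferon-stimulated genes are at -0.11 in WT and 1.97 in KO.

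The nuclear lamina and envelope list had medians of 0.12 in WT and 0.06 in KO. Lmna encodes the A-type lamins that LAP2alpha binds, and its counted transcript NM_001002011 had a log2 change of 0.13 (adjusted p = 0.85). Lmna has 3 IDs here, and its reads common to several of them are not in this value. Of the 19 measured genes of the list only Syne3 NM_001042699, for a nesprin of the outer nuclear membrane, rose, whereas 2.03% of all transcripts did. Syne3 went from 0.67 to 2.03 CPM in WT and from 0.368 to 2.95 CPM in KO, and it had passed the 1 CPM limit only through passage 42. None of 32 Hox genes was called by edgeR or DESeq2, with medians of -0.05 in WT and -0.34 in KO. At an unadjusted p under 0.05 there were 4 and 1 Hox genes, against 1783 and 730 of all 13870 transcripts. Of 22 genes of cholesterol synthesis and uptake, 18 were lower in WT alone and 16 in KO alone, and Nsdhl, encoding a sterol dehydrogenase, was the only one called and fell by 0.74 (4.55% against 0.627% of all transcripts).

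By chromosome, the medians of the fitted change lay between -0.05 and 0.17. Chromosome 16 had the highest, with 0.11 in WT alone and 0.20 in KO alone over 386 transcripts. Of these, 22 (5.7%) were called higher and none lower, against 2.03% and 0.627% of all transcripts. On chromosome 3, with a fitted median of 0.07, 28 of 668 (4.19%) were called higher and 1 (0.15%) lower. The called transcripts of chromosome 16 included Slc5a3, Mrps6, Adamts1, the mesenchymal transcription factor gene Snai2 and the interferon-stimulated Parp14, Dtx3l and Parp9. Chromosome 12 was at -0.02 in WT and 0.25 in KO over 405 transcripts, and chromosome 1 at -0.11 in WT and 0.15 in KO over 727. Copy number of these lines was not analysed here.

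Under 4 other tests together, 35 of the 369 transcripts were called each time, 22 higher and 13 lower. These tests were DESeq2, the edgeR likelihood ratio test, and the corrections for length and for GC share. DESeq2 alone called 39 of all 13870 transcripts, so its list set most of this limit. All 35 moved in the same direction in WT and KO, which selection on a shared change favours. The set was drawn after the values were seen and is a description. Those lower were Mt2, Mt1, Fosb, Nipal1, Fos, Igfbp5, Il1rl1, Pmepa1, Uqcrq, Tubb3, Gpc1, Loxl2 and Vat1. Those higher included Wsb1, Slc5a3, Mir100hg, Gpc4, Hivep3, Gas6, Fn1, Atp1b1, Zfhx4, Adamts9, Mrps6, Slc1a3, Snord83b, Col1a1 and Rere. With 35 of 13870 transcripts in the set, the absence of a list from it says little. No interferon-stimulated gene, clustered protocadherin or histone gene of the lists was among the 35.

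Of these, Mir100hg, a long noncoding host RNA of microRNAs, went from 97.2 to 265 CPM in WT and from 147 to 335 CPM in KO (log2 change 1.32, SE 0.183, adjusted p = 8.36e-10). Gpc4 and Gpc1, both encoding glypicans, cell surface heparan sulfate proteoglycans that bind growth factors, went opposite ways. Gpc4 went from 57.8 to 109 CPM in WT and from 35.7 to 117 CPM in KO, and Gpc1 from 107 to 56.8 CPM in WT and from 116 to 58 CPM in KO. Gas6, for a ligand of the TAM receptor kinases, went from 78.9 to 132 CPM in WT and from 30.6 to 102 CPM in KO. Pmepa1, encoding an inhibitor of TGF-beta signaling that TGF-beta itself induces, went from 44.7 to 27.1 CPM in WT and from 126 to 37.3 CPM in KO.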

How the data were processed

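The authors sequenced rRNA-depleted total RNA above a size limit and trimmed reads with cutadapt. They aligned reads to mm9 with TopHat2 2.0.9 and counted them per RefSeq transcript ID with HTSeq. The deposited values are raw counts per ID without normalization, in which reads that fit several IDs were counted for none (12.1 to 13.4% of reads). No source used here states whether counting used strand. Rows that name no feature stayed out of library sizes. The 2 libraries of a passage are 1 per line, so p-values set the passage change of 2 lines against a spread estimated over transcripts of like level, and the spread between cultures of a line was not measured. Members and lists were chosen with earlier results of these data known.

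IDs with at least 1 CPM in both libraries of a passage were fitted with edgeR 4.0.16 (R 4.3.3; TMM, quasi-likelihood, genotype as a block, since libraries of a genotype are 1 line; 1 residual degree of freedom; biological coefficient of variation 18.6%), with p-values adjusted over all 13870. The SE is the log2 change divided by the square root of F. For each genotype alone, log2 CPM (prior count 2) was subtracted between passages. A gene in one of 53 lists stands for its ID with the most reads. Named genes are the 10 largest changes each way among called transcripts that moved alike in both genotypes with a mean of at least 50 counts, up to 3 per list by p, and, with the same count limit, the 6 largest genotype differences each way; others named were chosen after their values were seen. Marker sums add all IDs of a gene, and a gene with several promoter windows was searched in each. Of the IDs, 32308 had a symbol and 29952 a position (GENCODE vM1, mm9). The passage fit was also run on simulated counts with the same change in both genotypes and 1 spread for all transcripts. That simulation leaves changes in KO alone unchecked. Alternatives included DESeq2 1.42.0.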

Additional observations from a re-analysis of the deposited data

Results flagged for a closer look

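Each result below stands here because WT alone and KO alone moved in opposite directions between passages. With 1 library per passage and genotype the difference between the genotypes was not tested, and values are KO change minus WT change on the log2 scale. Rtp4 NM_023386 differed by 4.01, 3110039M20Rik NR_026733 by 3.51 and Oasl2 NM_011854 by 3.45, each with the higher change in KO. Rtp4 and Oasl2 are interferon-stimulated, and 3110039M20Rik went from 2.6 to 0.254 CPM in WT and from 5.34 to 8.6 CPM in KO.

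In the other direction, Atf5 NR_033136 differed by -3.4, Tmem38b NM_028053 by -2.44, Tigd4 NM_207278 by -2.2, Phlda1 NM_009344 by -2.12, Agap3 NM_001256431 by -2.02 and Erich5 NM_173421 by -2.02. Atf5 and Agap3 each have a second transcript ID, so that part of their reads is not in these values.

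Among lists with at least 10 measured genes, the medians differed by 2.08 for interferon-stimulated genes, 0.76 for MHC class I antigen presentation, 0.71 for complement genes and 0.66 for elastic fibre, proteoglycan and matricellular genes. Smaller differences with opposite signs were 0.42 for fibroblast markers, 0.41 for respiratory chain complexes I to IV, 0.4 for cytosolic ribosomal proteins, 0.32 for adipogenic and fatty acid genes, 0.32 for chemokines and cytokine receptors, 0.3 for the ATF4 response and -0.4 for AP-1 and immediate-early genes.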

How the results depend on the processing

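The number of transcripts called (369, 282 higher and 87 lower) stayed within 1.5 times in both directions with RLE size factors, library totals, a filter by genotype, a prior count of 0.5, thinned libraries, robust estimates and the GC correction. It was 39 with DESeq2 (25 higher, 14 lower), where 5378 transcripts had no adjusted p, 235 with the edgeR likelihood ratio test (179 and 56), 145 with 1 CPM in all 4 libraries (106 and 39), 243 with counts summed per gene (186 and 57) and 81 with the length correction (58 and 23). With no filter on low counts 44 were lower. All of the transcripts called by DESeq2, the likelihood ratio test, the filter in all libraries and the length correction were among the 369. With the length correction edgeR's prior degrees of freedom went from infinite to 29.3. The length and GC corrections were chosen after seeing the data.

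Without the genotype block (no replicate block) the count was 0. Leaving out 1 library as well leaves a single library in 1 passage, so no count is given for it. With the block kept, leaving out a library leaves no residual degree of freedom, so the value is the other genotype's change: Fbn2 lay between -0.32 and 1.73, Itga11 between -0.22 and 1.58 and Oasl2 between -0.22 and 3.26, the negative values without either KO library. Transcripts past 2-fold in both genotypes numbered 124, and 50 with 1 CPM in all 4 libraries. Syne2, which was not called, became -0.02 with the length correction and 3110039M20Rik 0.16 without the block. The cause of these differences was not tested. Leaving out a library without the block was not run for single transcripts, because that fold change would hold the genotype difference.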

Other observations

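Of 27 lysosomal genes and cathepsins, 24 were lower in WT alone (median -0.36) and 17 in KO alone (median -0.11). The only one called was Gpnmb, encoding a glycoprotein of lysosomes and melanosomes (3.7% called lower against 0.627% of all transcripts), which fell from 13.5 to 7.31 CPM in WT and from 35.8 to 13.7 CPM in KO. Of 44 NRF2 and glutathione genes, 35 were lower in WT alone (median -0.34) and 23 in KO alone (median -0.03). None was called by edgeR or DESeq2 (6 and 3 at an unadjusted p under 0.05, against 1783 and 730 of all 13870 transcripts). The chemokine gene Ccl5 fell by 1.11, from 7.71 to 6.29 CPM in WT and from 58.8 to 17 CPM in KO.

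Of 36 measured growth factor ligand and receptor genes, 2 rose (5.56% against 2.03% of all transcripts) and none fell, with medians of 0.1 in WT and 0.02 in KO. Flt1, encoding a VEGF receptor, went from 8.29 to 16.2 CPM in WT and from 8.9 to 20 CPM in KO, and Nrg1, encoding an ErbB ligand, from 67.8 to 109 CPM in WT and from 38.8 to 70.3 CPM in KO. Notch1 went from 53.3 to 89.5 CPM in WT and from 38.2 to 79.6 CPM in KO, a log2 change of 0.90. Crabp1, encoding a retinoic acid binding protein, went from 1.01 to 1.97 CPM in WT and from 32.5 to 77.6 CPM in KO, so that the distance between the lines stayed far larger than the change with passage.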
